A study of Bos taurus with 50 samples.

Results

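Immune and cytokine genes were followed in the endometrium, the lining of the uterus, of lactating dairy cows. The genes were 29 of the 18830 genes in the deposited count table, and they were taken from the lists of changed genes for cyclicity status, for week and for part of the microbiota comparisons. A gene was included if its symbol begins as a chemokine, interleukin, interleukin receptor, CD antigen, colony stimulating factor, tumor necrosis factor (TNF) family or interferon family symbol. TNFRSF1A and TNFRSF25 were left out by the rule. Of the 29 genes, 20 were listed for a comparison of ovarian cyclicity status or of weeks, and 9 were listed only for an association with the uterine microbiota (CCL20, CXCL13, CXCL17, IFNAR1, IL12B, IL17RD, IL18BP, IL22 and IL36A).

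RNA came from first lactation cows of Holstein x Jersey breeding, biopsied at weeks 5 and 9 after calving. The CycW5 cows (10 libraries at week 5, 10 at week 9) were cycling at week 5, with a corpus luteum (CL) and circulating progesterone (P4). The NoCycW5 cows (12 and 11 libraries) had follicles but no CL at week 5, with P4 below detection. The CycNoP4 cows (4 and 3 libraries) had cycled, but their P4 had fallen by the week 5 biopsy, and the study left them out of its analysis. All cows were then given gonadotropin releasing hormone, a P4 insert and prostaglandin to synchronize ovulation, so the week 9 biopsy of every group was planned for day 13 of the estrous cycle, when a CL secretes P4. The labels do not say which libraries came from the same cow, so weeks were compared as unpaired groups.

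Cytokines are secreted proteins that act on receptors of nearby cells. Chemokines (CCL and CXCL genes) attract leukocytes, interleukins and colony stimulating factors direct their growth and activation, and interferons act through receptors that include IFNAR1. In the ruminant uterus these systems serve both the clearance of bacteria after calving and the response to the conceptus, and P4 is known to dampen uterine inflammation and to reset gene expression in the glands and lining epithelium.

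Between 21592867 and 32813237 reads per library were counted on genes (median 28126022.5). Levels are given as CPM, read counts scaled to a common library size with TMM normalization, which allows groups to be compared for a gene but not levels between genes, since gene length is not considered. Differences between groups are log2 ratios with their standard error (SE), tested with edgeR (quasi-likelihood) over all genes, and a differentially expressed gene (DEG) is one at 0.05 or below after Benjamini-Hochberg (BH) adjustment. Because the 29 genes were selected from the study's lists, a gene has a P here only in comparisons that use no group of the comparison that listed it, and its other values are a description. A filter on low counts was passed by 24 genes in the fit of the CycW5 and NoCycW5 groups and by 25 in the fits with CycNoP4 cows at each week, where IL12B was added. The tissue was checked against its markers. Of 8 epithelial markers, 4 could be paired with an identifier (EPCAM, KRT8, CLDN3 and CLDN4), and none of the 4 was at 0 in any group. The stromal marker PDGFRA was at 268.6 to 957.7 CPM over all libraries. Of leukocyte markers, 0 of 17 for T and NK cells, 1 of 10 for B and plasma cells, 0 of 14 for macrophages and dendritic cells and 0 of 10 for neutrophils could be paired, so leukocyte content was not analysed here. In biopsies, fewer cells of a type and less RNA per cell cannot be told apart.

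The receptor genes IL6R, IL31RA, IL13RA2 and TNFRSF8 shared a pattern in their medians over the 6 groups. These genes were listed for the change of the NoCycW5 cows from week 5 to week 9, and TNFRSF8 also for status at week 5, so that side of the pattern describes how they were chosen and was given no test. Each had its lowest medians in the NoCycW5 and CycNoP4 cows at week 5, a higher median in CycW5 endometrium at week 5, and high medians in every group at week 9. IL6R (ENSBTAG00000018474) encodes the receptor subunit that binds IL-6. At week 5, IL6R ranged from 17.1 to 56.9 CPM in NoCycW5 endometrium (median 35.97) and from 35.2 to 421 CPM in CycW5 endometrium (median 126). The CycNoP4 libraries 51, 56, 58 and 64 had 110, 54.9, 52.1 and 35.5 CPM. At week 9, medians were 299 CPM in NoCycW5 endometrium, 317 CPM in CycW5 endometrium and 252 CPM in the CycNoP4 cows. Thus 9 of 10 CycW5 libraries, but 1 of 4 CycNoP4 libraries, lay above the NoCycW5 range at week 5. At week 9, 10 of 11 NoCycW5 libraries, 10 of 10 CycW5 libraries and 3 of 3 CycNoP4 libraries lay above that week 5 range. At week 5, the CycW5 libraries above the NoCycW5 range were also 9 of 10 for IL31RA, but 5 of 10 for TNFRSF8 and 4 of 10 for IL13RA2, so many libraries of both groups overlapped for the last 2 genes.

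IL31RA (ENSBTAG00000004351) encodes a cytokine receptor subunit that is related to the IL-6 receptor family, and it went from nearly absent to readily counted. In the NoCycW5 cows at week 5, 6 of 12 libraries had 0 reads and the highest had 7 reads (0.235 CPM). All 4 CycNoP4 libraries were at 0. In the CycW5 cows at week 5 the range was 0 to 8.76 CPM (median 2.86), with 1 library at 0. At week 9, medians were 7.45 CPM in NoCycW5 endometrium, 6.39 CPM in CycW5 endometrium and 6.91 CPM in the CycNoP4 cows.

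TNFRSF8, which encodes the lymphocyte activation receptor CD30, had medians at week 5 of 0.455 CPM in NoCycW5 endometrium, 0.350 CPM in the CycNoP4 cows and 1.69 CPM in CycW5 endometrium. Its week 9 medians were 2.20, 2.59 and 2.35 CPM in the NoCycW5, CycNoP4 and CycW5 cows. The CycNoP4 range at week 5 (0.302 to 0.494 CPM) did not overlap that of the CycW5 cows (0.691 to 3.56 CPM). IL13RA2, the decoy receptor for IL-13, had week 5 medians of 0.254, 0.387 and 0.562 CPM in the NoCycW5, CycNoP4 and CycW5 cows and week 9 medians of 1.57, 1.17 and 1.07 CPM. TNFAIP8L3, which encodes a lipid transfer protein of the TNF-induced TIPE family, ran the other way. Its median was 3.95 CPM in NoCycW5 endometrium at week 5, 3.59 CPM in the CycNoP4 cows and 2.76 CPM in CycW5 endometrium, and it was 1.71, 1.33 and 1.40 CPM in the same groups at week 9.

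**Figure D1:**
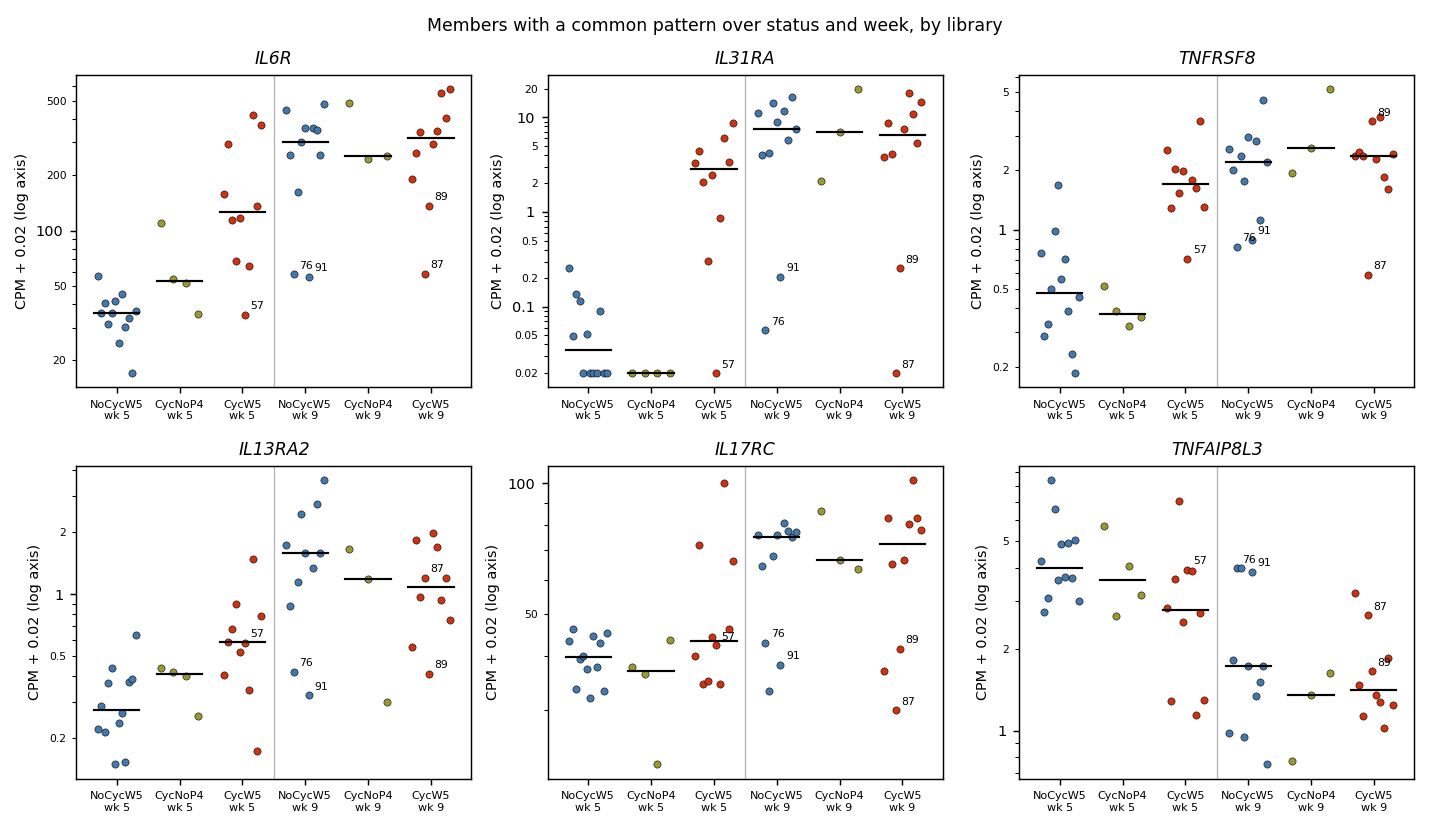
CPM plus 0.02 on a log axis for 6 genes in each library, by group and week; points are libraries, bars are group medians, and libraries 57, 76, 87, 89 and 91 are numbered. In IL6R, IL31RA and TNFRSF8 the NoCycW5 and CycNoP4 libraries of week 5 lie low and most libraries of week 9 lie high, while TNFAIP8L3 runs in the opposite direction.

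CycW5 library 57 at week 5 was the only one of its group inside the NoCycW5 range for IL6R (35.2 CPM) and IL31RA (0 reads). For TNFRSF8, libraries 13, 52, 57, 66 and 70 were inside it. At week 9, NoCycW5 libraries 76 and 91 had IL31RA at 0.0363 and 0.189 CPM, inside the NoCycW5 range of week 5. CycW5 libraries 87 and 89 had IL31RA at 0 and 0.234 CPM, also inside that range. The week 9 libraries inside it differed by gene. For TNFRSF8 they were NoCycW5 libraries 76, 91 and 95 and CycW5 libraries 87 and 98, while library 89 was at 3.54 CPM. For IL13RA2 they were NoCycW5 libraries 76 and 91, CycW5 libraries 72 and 89 and CycNoP4 library 94. For IL6R, only NoCycW5 library 91 was inside it. The summed CPM of the 4 paired epithelial markers moved with this pattern in part. The sum was 235 to 476 CPM (median 349) in NoCycW5 endometrium at week 5, 359 to 1282 CPM (median 568.1) in CycW5 endometrium and 479 to 940 CPM (median 622) in the CycNoP4 cows. At week 9, it was 391 to 1328 CPM (median 977) in NoCycW5 endometrium, 307 to 1078 CPM (median 913) in CycW5 endometrium and 520 to 1089 CPM (median 686) in the CycNoP4 cows. Libraries 76 (391 CPM) and 89 (307 CPM) were the lowest of their groups at week 9, and libraries 91 and 87 were the next lowest. These were the week 9 libraries inside the NoCycW5 range for IL31RA. In the CycW5 cows at week 5, library 52 was the lowest in this sum (359 CPM), and library 57 was at 527 CPM. In this sum the lowest CycNoP4 library at week 5 (479.1 CPM) was just above the highest NoCycW5 library (475.5 CPM). Each of the 4 markers alone overlapped between these groups. The CycNoP4 median at week 5 was above the CycW5 median for EPCAM and KRT8 and below it for CLDN3 and CLDN4. Of the CycNoP4 libraries, 1 of 4 was above the NoCycW5 range for IL6R and 0 of 4 for IL31RA, TNFRSF8 and IL13RA2. The part of epithelial content in the receptor values was not tested.

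The CycNoP4 cows were compared with the CycW5 cows at week 5 to ask how endometrium from cycling cows differed without current P4. This comparison could test 21 genes, because neither group at week 5 was part of a cyclicity or week comparison that listed them. Of these, IFNAR1, IL17RD and CXCL17 were listed for the microbiota at week 5, on libraries that include CycW5 cows. Their values here are not independent of that listing. DEG were 7 of the 21 (33.3%), compared with 17.7% of the 15738 genes tested. In the CycNoP4 cows 3 were greater (background 8.7% of all genes) and 4 were lesser (background 9%), and the median log2 ratio of the 21 genes was 0.04, with -0.01 over all genes. One of the 7, IL31RA, passed the filter through the CycW5 group alone, where it is high, so it is described below without a test, which leaves 6 DEG among the other 20 genes. Of the 7, CCL25, IL31RA, IL6, IL6R and TNFRSF9 had been listed for the NoCycW5 change from week 5 to week 9. That change likewise sets endometrium without a CL against endometrium planned for the luteal phase. The share of DEG here is therefore not independent of how the genes were chosen.

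The lesser genes were IL6R, IL31RA, CCL25 and IL18BP. The log2 ratio for IL6R was -1.49 (SE 0.49, BH P = 0.0359), and all 4 CycNoP4 libraries were below the CycW5 median. The call for IL6R was lost without any of the CycW5 libraries 13, 66 and 70 or the CycNoP4 libraries 56, 58 and 64, with BH P of 0.0555 to 0.104 in those fits. IL31RA had a mean of 3.14 ± 2.72 CPM (SD, n = 10) in CycW5 endometrium, at least 118-fold higher than in the CycNoP4 cows when 3 reads are allowed over their 4 libraries (0.0266 CPM). It was below the stricter filter on low counts. IL17RC (log2 ratio -0.56, BH P = 0.0849) and IL13RA2 (-0.80, BH P = 0.198) were not DEG.

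CCL25 (ENSBTAG00000005581) encodes a chemokine known for drawing lymphocytes to mucosal sites. The CycNoP4 libraries 51, 56, 58 and 64 had 1.37, 1.55, 1.62 and 1.89 CPM, whereas the CycW5 cows ranged from 2.16 to 4.44 CPM (median 3.55), so the groups did not overlap. The log2 ratio was -1.11 (SE 0.23, BH P = 0.00207). The NoCycW5 range at week 5, 1.94 to 3.60 CPM, was also above all 4 CycNoP4 libraries. By week 9 the CycNoP4 cows were at 3.43 to 4.47 CPM, inside the NoCycW5 range (2.70 to 5.21 CPM), and the highest of them was above the CycW5 range (1.94 to 3.99 CPM). IL18BP, which encodes the secreted inhibitor of IL-18, had 11.7, 8.68, 6.91 and 12.2 CPM in the CycNoP4 libraries and 9.87 to 17.03 CPM in CycW5 endometrium (median 13.6). The log2 ratio was -0.50 (SE 0.16, BH P = 0.0329), and the call was lost without CycW5 library 13 or 66 or CycNoP4 library 56 or 58 (BH P of 0.0514 to 0.175).

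The greater genes in the CycNoP4 cows were IFNAR1, TNFRSF9 and IL6. IFNAR1 (ENSBTAG00000021819) is a subunit of the type I interferon receptor, through which interferon tau of the conceptus signals in ruminants. The CycNoP4 libraries had 250, 187, 210 and 150 CPM, all above the CycW5 range of 74.1 to 136 CPM (median 120). The log2 ratio was 0.84 (SE 0.16, BH P = 0.00123), and it was a DEG in each of the 14 fits that left out 1 library. TNFRSF9, a co-stimulatory receptor of activated T cells, had 1.25, 5.32, 3.098 and 1.35 CPM in the CycNoP4 libraries and 0.386 to 1.55 CPM in CycW5 endometrium (median 0.695). The groups overlapped, the log2 ratio was 1.75 (SE 0.42, BH P = 0.00675), and without library 56 the gene was not a DEG (1.22, BH P = 0.0802).

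IL6 encodes the inflammatory cytokine IL-6. Its values were 11.5, 0.924, 0.604 and 0.203 CPM in the CycNoP4 libraries and 0.120 to 1.27 CPM in CycW5 endometrium (median 0.348), so a single library lay outside the CycW5 range. The log2 ratio of 2.60 (SE 0.69, BH P = 0.0123) fell to 0.09 (BH P = 0.946) without library 51. Library 51 also had the highest value among the 26 week 5 libraries for CCL2 (114 CPM), CSF3 (4.03 CPM), IFNAR1 (250 CPM) and IL17RA (49.8 CPM). CCL2, the monocyte-attracting chemokine, had a log2 ratio of 1.58 (SE 0.61, BH P = 0.0722) with all 4 CycNoP4 libraries above the CycW5 median. It became a DEG without library 12, 57, 58 or 64 (BH P of 0.0334, 0.0364, 0.0485 and 0.03), and it was one by DESeq2 (BH P = 0.0444).

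**Figure D2:**
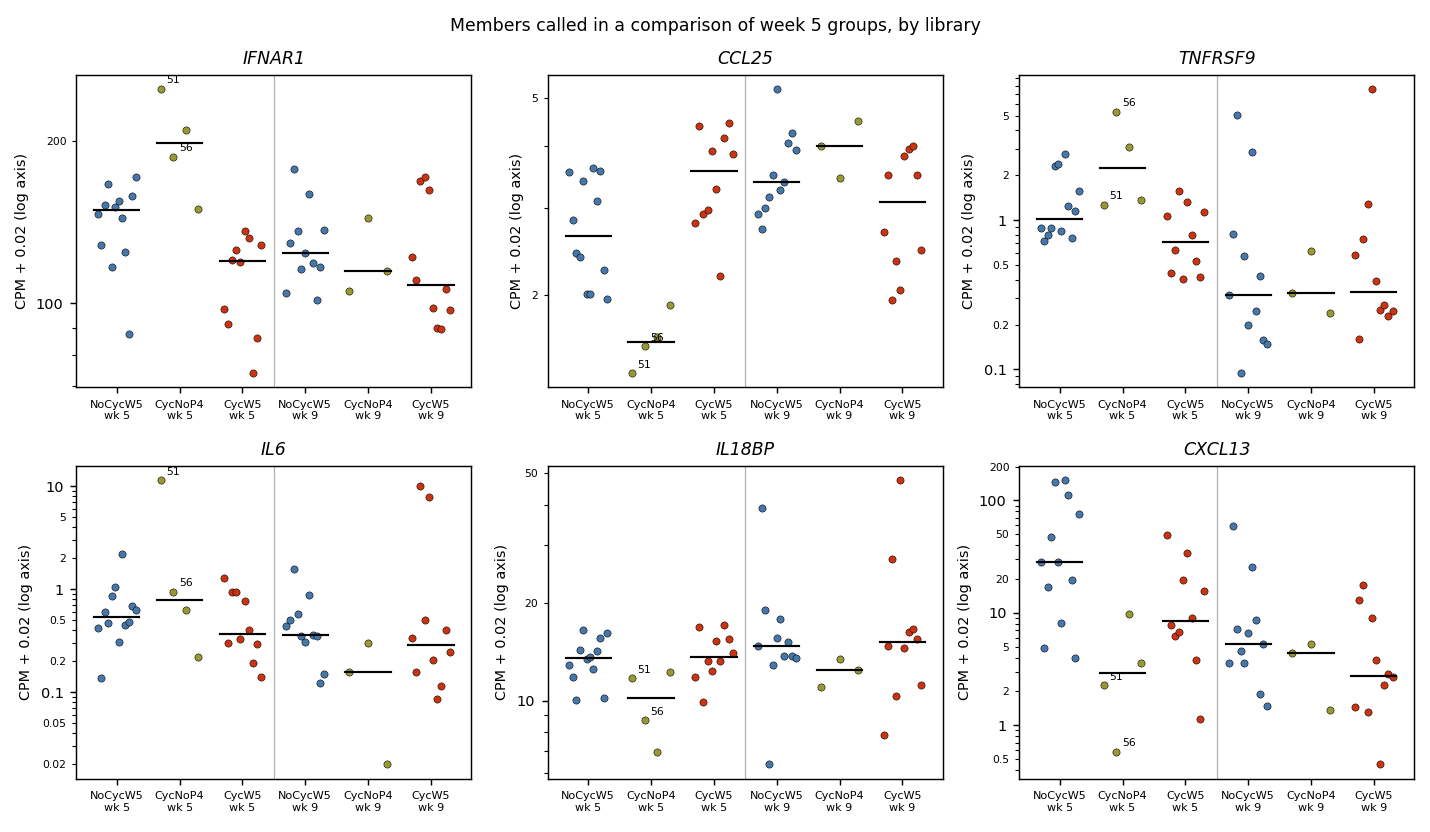
CPM plus 0.02 on a log axis for the DEG IFNAR1, CCL25, TNFRSF9, IL6, IL18BP and CXCL13 in each library by group and week; points are libraries, bars are group medians, and CycNoP4 libraries 51 and 56 are numbered. All 4 CycNoP4 libraries of week 5 lie above the CycW5 libraries for IFNAR1 and below them for CCL25, whereas library 51 stands alone for IL6 at 11.5 CPM.

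**Figure D3:**
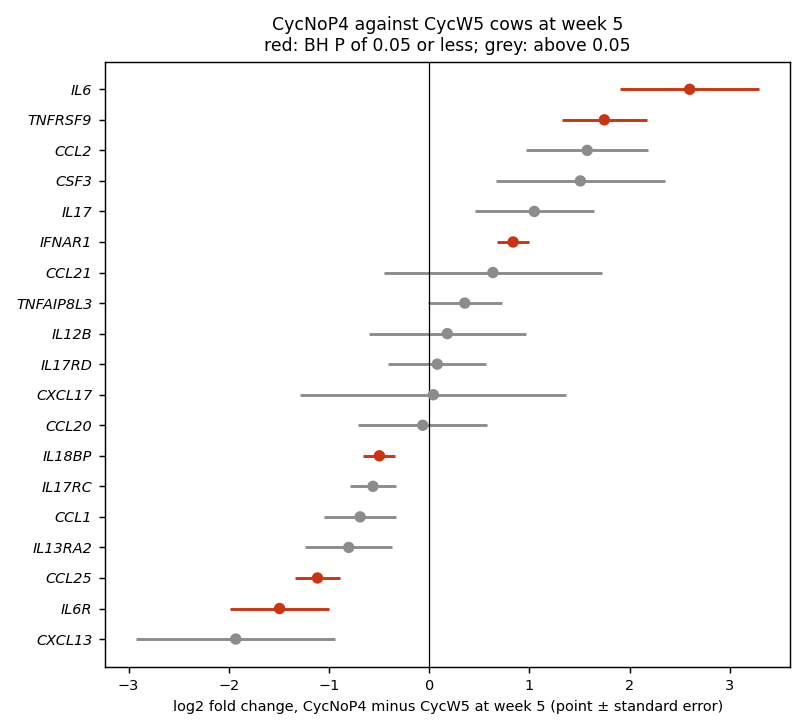
Log2 ratios of CycNoP4 minus CycW5 cows at week 5 with SE, for 19 of the 21 genes tested; DEG are red. IL31RA, which was at 0 in every CycNoP4 library, is not drawn because a fitted fold change against 0 has no fixed size.

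Genes of related pathways that could be paired with an identifier were read beside these. Of the IL-6 family and JAK-STAT list, 3 of 16 genes could be paired (LIF, CNTFR and PTPN11), and of the TNF receptor and NF-kB list, 1 of 19 (RELB). Of the IL-17 and IL-22 responsive list, 4 of 26 could be paired, and each paired gene is in the study's lists too. Of the 11 paired list genes, markers included, that this comparison could test, 4 were DEG, with 17.7% of all genes as the background. All 4 had been listed for the NoCycW5 change from week 5 to week 9, so this share is not independent of that listing. Compared with the CycW5 cows at week 5, the CycNoP4 cows had greater LIF (log2 ratio 1.497, SE 0.49, BH P = 0.0361), a cytokine of the IL-6 family that is needed for implantation in mice. CNTFR, the receptor for ciliary neurotrophic factor, was also greater (1.36, SE 0.28, BH P = 0.00246), as was RELB, a subunit of the NF-kB transcription factor (0.88, SE 0.19, BH P = 0.00363). The epithelial tight junction gene CLDN3 was lesser (-1.09, SE 0.37, BH P = 0.0427). EPCAM was at 387 ± 111 CPM (SD, n = 4) in the CycNoP4 cows and 344 ± 181 CPM (SD, n = 10) in CycW5 endometrium (log2 ratio 0.17, SE 0.33). KRT8 was at 184 ± 66.8 and 167 ± 30.9 CPM (0.14, SE 0.18). CLDN4 was at 62.8 ± 51.7 CPM in the CycNoP4 cows and 99.99 ± 105.7 CPM in CycW5 endometrium (log2 ratio -0.67, SE 0.66, BH P = 0.504). Apart from CLDN3, these marker differences were near their SE or smaller, so their direction is not established. No gene of the chemokine receptor (0 of 22) or type I interferon (0 of 25) lists could be paired. Against the NoCycW5 cows at week 5, 1 of 7 list genes was a DEG, with 14.7% of all genes as the background, so the count was near it. The gene was PTPN11, which encodes the phosphatase SHP-2 (log2 ratio 1.003, SE 0.25, BH P = 0.0144).

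Against the NoCycW5 cows at week 5, 9 genes could be tested in the CycNoP4 cows under the same rule, and 2 were DEG (22.2%, compared with 14.7% of all genes, 8.87% greater and 5.86% lesser). This comparison shares the CycNoP4 libraries with the one above. Its NoCycW5 libraries are used again below, against CycW5 cows at week 5 and against NoCycW5 cows at week 9. The CXCL13 calls in these comparisons all rest on that NoCycW5 group, so they are not separate findings. IFNAR1 was greater in the CycNoP4 cows (log2 ratio 0.50, SE 0.15, BH P = 0.0335), with 4 of 4 libraries above the NoCycW5 median of 149 CPM. That call was lost without NoCycW5 library 49 (BH P = 0.051) or CycNoP4 library 51, 56 or 58 (BH P of 0.212, 0.083 and 0.0834). CXCL13 (ENSBTAG00000008479), the chemokine that draws B cells into lymphoid follicles, was lesser (log2 ratio -3.73, SE 1.10, BH P = 0.0282). The CycNoP4 libraries had 2.24, 0.561, 9.78 and 3.58 CPM of CXCL13, and the NoCycW5 cows ranged from 3.96 to 152 CPM (median 28.3). The CXCL13 call was lost without CycNoP4 library 51 (BH P = 0.14) or 56 (BH P = 0.103). Limma-voom and a fit of only the 2 compared groups called 0 of the 9 genes. IL18BP (-0.43, BH P = 0.0601) was not a DEG, but it was one without library 47, 64 or 68 (BH P of 0.0425, 0.02 and 0.039). IL20RA was not a DEG either (-0.40, BH P = 0.24), except without library 64 (BH P = 0.0422).

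In the comparison of CycW5 with NoCycW5 endometrium at week 5, 7 genes could be tested and 2 were DEG (28.6%, compared with 26.6% of the 15483 genes tested), so the share was near the background. Both were lesser in CycW5 endometrium, as were 11.4% of all genes, and none was greater (15.2% of all genes). CXCL13 ranged from 1.13 to 48.7 CPM in CycW5 endometrium (median 8.38) and from 3.96 to 152 CPM in NoCycW5 endometrium (median 28.3), with 8 of 10 CycW5 libraries below the NoCycW5 median. The log2 ratio was -1.80 (SE 0.69, BH P = 0.0471). The CXCL13 call was lost in 13 of 22 fits that left out 1 library, with BH P of 0.0539 to 0.0972. Those were CycW5 libraries 13, 45, 52, 54, 59, 66, 67 and 70 and NoCycW5 libraries 48, 49, 61, 63 and 69. IFNAR1 was at 74.1 to 136 CPM in CycW5 endometrium (median 120) and at 87.7 to 172 CPM in NoCycW5 endometrium (median 149), with 10 of 10 CycW5 libraries below the NoCycW5 median. The log2 ratio was -0.35 (SE 0.13, BH P = 0.0389). IFNAR1 was listed for the microbiota at week 5, on libraries of these groups, so this value is not independent of that listing. The IFNAR1 call was lost in 11 of 22 such fits, with BH P of 0.0508 to 0.0785. Those left out CycW5 library 12, 13, 66 or 67 or NoCycW5 library 47, 48, 53, 55, 61, 68 or 69. At week 5 the IFNAR1 medians thus ran from 120 CPM in CycW5 endometrium through 149 CPM in NoCycW5 endometrium to 199 CPM in the CycNoP4 cows.

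The other genes tested at week 5 did not pass. CCL20, which attracts lymphocytes and dendritic cells to epithelia, had medians of 0.616 CPM in CycW5 endometrium and 2.69 CPM in NoCycW5 endometrium (log2 ratio -1.44, SE 0.79, BH P = 0.171), but it was a DEG with only the compared groups (BH P = 0.0276) and with library quality weights in limma-voom (-2.15, BH P = 0.00189). These 2 settings called 4578 of 15075 and 6038 of 15483 genes. CSF3, the granulocyte colony stimulating factor gene, the mucosal chemokine gene CXCL17, the signaling modulator gene IL17RD and IL18BP had BH P of 0.536 to 0.944. The genes listed for this comparison were IL6ST and TNFRSF8, which are described without a test. IL6ST, the signal-transducing subunit shared by receptors of the IL-6 family, was at 128 ± 41.4 CPM (SD, n = 10) in CycW5 endometrium and 89.2 ± 35.02 CPM (SD, n = 12) in NoCycW5 endometrium. IL17, the gene of the neutrophil-recruiting cytokine IL-17A, shares a group with its listing comparison and was lower than the NoCycW5 median of 0.894 CPM in 10 of 10 CycW5 libraries (median 0.205 CPM).

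The NoCycW5 cows had no CL at week 5, and their week 9 biopsy was planned for the luteal phase. Of the 29 genes, 16 had been listed for the change from week 5 to week 9. The background was 35.7% of all genes, 19.4% greater and 16.3% lesser. Of the 7 genes that could be tested, 2 were DEG (28.6%), CXCL13 and IL20RA. CXCL13 fell from a median of 28.3 CPM to 5.27 CPM (range 1.46 to 58.7 CPM), with 10 of 11 week 9 libraries below the week 5 median. The log2 ratio was -2.21 (SE 0.68, BH P = 0.00991), and it was a DEG in each of 23 fits that left out 1 library. However, CXCL13 was listed for the microbiota at week 9, on libraries that include NoCycW5 cows. This value and the fits that left out a library are not independent of that listing. IL20RA, a receptor subunit for IL-20 family cytokines of epithelia, rose from a median of 7.01 CPM to one of 9.17 CPM (log2 ratio 0.44, SE 0.18, BH P = 0.0487). The IL20RA call was lost in 16 of 23 such fits, with BH P of 0.0534 to 0.124. Those left out week 5 library 44, 47, 48, 49, 53, 55, 65 or 68 or week 9 library 74, 75, 76, 82, 90, 91, 95 or 100. The genes not passing were CCL20, CXCL17, IFNAR1, IL17RD and IL18BP (BH P of 0.158 to 0.997). With library quality weights in limma-voom, CCL20 was at -2.44 (BH P = 0.000118), compared with -0.15 by edgeR. Under those weights 8557 of 15483 genes were called. EPCAM was also greater after that interval (log2 ratio 1.09, SE 0.23, BH P = 0.000364), and its part in these changes was not tested.

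Among the listed genes that passed the filter in NoCycW5 endometrium, 9 had positive and 6 had negative log2 ratios at week 9, which is a description of the groups that selected them. The positive changes ran from 0.18 for IL17RA, the main receptor subunit for IL-17, to 7.15 for IL31RA, and included 2.96 for IL6R, 2.45 for IL13RA2, 1.93 for TNFRSF8, 0.71 for IL17RC, the partner subunit of IL17RA, 0.63 for the chemokine CCL1 and 0.39 for CCL25. The largest negative change was in CCL21, the chemokine of lymphatic vessels that guides dendritic cells and naive T cells. CCL21 had 1 to 594 reads in each of the 12 libraries at week 5 (median 1.65 CPM), but 0 reads in 7 of 11 libraries at week 9 and at most 3 reads in the others. In the CycW5 cows at week 9, 1 of 10 libraries had 0 reads of CCL21 and the median was 0.405 CPM. The CycNoP4 libraries 79, 88 and 94 of week 9 had 0.341, 2.38 and 0 CPM. The NoCycW5 cows at week 9 therefore stood below both other groups for CCL21, a value that is not independent of how the gene was chosen.

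Of the other negative changes in NoCycW5 endometrium, that of TNFAIP8L3 was -1.12 (SE 0.30). That of IL17 was -1.03 (SE 0.75), with medians of 0.894 and 0.112 CPM and library 75 of week 9 at 1.85 CPM. The rest were seen in medians more than in means. CCL2 had a median of 20.5 CPM at week 5 and 9.78 CPM at week 9, but means of 25.4 and 24.7 CPM, and week 9 library 76 was at 117 CPM. TNFRSF9 had medians of 1.002 and 0.294 CPM and means of 1.34 and 0.969 CPM, with library 76 at 5.05 CPM. For IL6, the medians were 0.522 and 0.340 CPM. The fitted changes of CCL2, TNFRSF9 and IL6 (-0.03, -0.45 and -0.43) were smaller than their SE of 0.64, 0.61 and 0.66.

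In the CycW5 cows, a CL was present at week 5, and the week 9 biopsy was planned for the luteal phase. Week 9 was compared with week 5 in 17 genes that no cyclicity or week list had selected on these groups. None was a DEG by edgeR (0 of 17, with 0.0452% of all genes called, 0.0129% greater and 0.0323% lesser), and DESeq2 and limma-voom called 0 as well. An unadjusted P under 0.05 was found for 5 of the 17 and for 2204 of all 15483 genes. The 5 were CCL2, CXCL13, IL13RA2, IL6R and TNFAIP8L3. With library quality weights in limma-voom, IL6R (log2 ratio 1.43, BH P = 0.00247), IL17RC (0.72, BH P = 0.00228), IL13RA2 (1.36, BH P = 0.00783) and TNFAIP8L3 (-0.92, BH P = 0.0187) were DEG. That setting called 3170 of all 15483 genes, so 4 of 17 was near its background. In the edgeR fit these 4 genes had log2 ratios of 0.84, 0.38, 0.86 and -0.84 with SE of 0.38, 0.20, 0.36 and 0.31. The same signs were seen in NoCycW5 endometrium, but these 4 genes had been listed for that change. Their signs there describe how they were chosen. As a description, the listed genes IL17RA and IL20RA were at 36.6 and 6.14 CPM on average at week 5 and at 46.6 and 9.19 CPM at week 9.

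**Figure D4:**
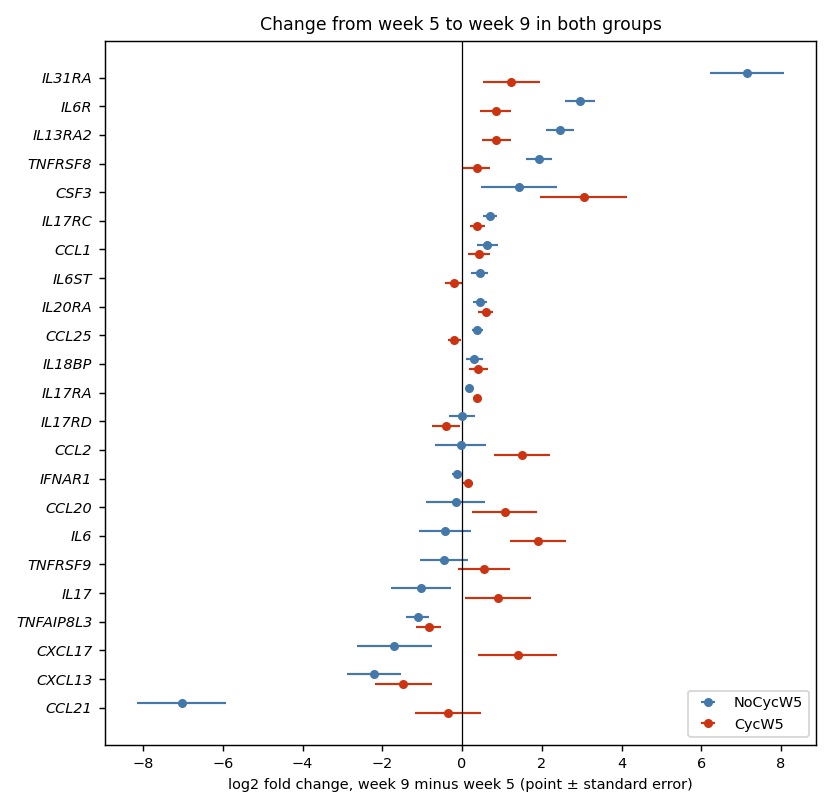
Week 9 minus week 5 log2 ratios with SE in the NoCycW5 and CycW5 cows for 23 of the 24 genes that passed the filter; blue points are NoCycW5 and red points are CycW5. IL31RA (7.15) and CCL21 (-7.03) have the widest changes in NoCycW5 endometrium, which were part of what selected them, and the changes of the CycW5 cows lie between -1.47 and 3.05.

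Whether the week 9 minus week 5 change differed by status was testable for 6 genes, and 0 were DEG (background 7.82% of all genes, 4.99% with a positive and 2.83% with a negative difference). DESeq2 and limma-voom also called 0, and 1 of the 6 had an unadjusted P under 0.05, as did 4243 of all 15483 genes. That gene was CXCL17, whose NoCycW5 change minus CycW5 change was -3.09 (log2, SE 1.37, BH P = 0.136). Single libraries stood high for CXCL17, at 39.6 CPM in NoCycW5 library 48 at week 5, 19.8 CPM in CycW5 library 54 at week 5 and 47.8 CPM in CycW5 library 89 at week 9. Without library 54 the difference was -4.82 and the gene was a DEG (BH P = 0.0234). The group medians of CXCL17 were 0.603 and 1.197 CPM in NoCycW5 endometrium and 0.734 and 1.11 CPM in CycW5 endometrium at weeks 5 and 9.

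At week 9, when all cows were to be on day 13 of the cycle, no gene tested was a DEG by status. The genes that the study listed for status at week 9 (CSF3, IL6 and IL17) were not among those tested. Of 7 genes tested between the CycW5 and NoCycW5 cows, 0 were DEG by edgeR, DESeq2 or limma-voom (0.00646% of all genes by edgeR), and 1 had an unadjusted P under 0.05, as did 992 of all 15483 genes. It was CXCL17 (log2 ratio 2.502, SE 0.997, BH P = 0.757). The CycNoP4 cows at week 9 were compared with NoCycW5 cows in 9 genes and with CycW5 cows in 20 genes, and 0 were DEG in both by these 3 tools, as were 0% of all genes by edgeR. With an unadjusted P under 0.05, there were 0 and 3 genes, respectively, and 665 and 684 of all 15771 genes. The 3 genes were CCL2, CXCL17 and IL12B, each of which was highest in CycW5 library 89. At week 9 IL6R was at 326 ± 137 CPM (SD, n = 3) in the CycNoP4 cows and 316 ± 168 CPM (SD, n = 10) in CycW5 endometrium (log2 ratio 0.03, SE 0.55). IFNAR1 was at 121.2 ± 20.05 and 121.5 ± 33.12 CPM (-0.02, SE 0.21).

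What set week 9 libraries apart was a group of inflammatory genes that were high in a few libraries of both groups, chosen for description after their values were seen. CSF3 had 25.3 CPM in CycW5 library 83 and 5.61 CPM in library 89, compared with a CycW5 median of 0.135 CPM, and it had 17.7 CPM in NoCycW5 library 75, compared with a NoCycW5 median of 0.179 CPM. CCL20 was at 11.6 and 7.24 CPM in libraries 83 and 89 and at 12.7, 8.28 and 4.49 CPM in NoCycW5 libraries 75, 76 and 91, whereas the group medians were 0.280 CPM (CycW5) and 0.535 CPM (NoCycW5). IL6 was at 10.03 and 7.91 CPM in libraries 83 and 89, with a CycW5 median of 0.270 CPM. IL17 was at 1.43 and 2.57 CPM in the same libraries and at 1.85 and 1.34 CPM in NoCycW5 libraries 75 and 76, with medians of 0.0715 and 0.112 CPM. The same libraries thus stood high in several genes. However, CSF3, CCL20 and IL17 were listed for an association of the week 9 endometrium with the earlier microbiota. CXCL13, IL12B, IL18BP and IL36A were listed for it too, and CSF3, IL17 and IL6 for status at week 9. Genes selected for such differences at week 9 can be high in the same libraries. This sharing is therefore not independent of how the genes were chosen.

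Library 89 had the highest value of the 24 week 9 libraries in 9 of 27 genes with at least 10 reads in some week 9 library. These were CCL1, CCL2 (265 CPM), CCL21, CXCL17 (47.8 CPM), IL12B (3.93 CPM), IL17, IL17RA, IL18BP (47.7 CPM) and TNFRSF9 (7.59 CPM). IL12B encodes a subunit shared by IL-12 and IL-23. Library 76 was highest in IFNAR1, IL17RD, IL20RA, IL6ST and TNFAIP8L3, and library 75 in CCL20, CXCL13 (58.7 CPM) and IL36A. As a description, the means of the listed genes CSF3 and IL6 at week 9 were 3.19 ± 7.96 and 1.98 ± 3.72 CPM (SD, n = 10) in CycW5 endometrium and 1.96 ± 5.24 and 0.491 ± 0.412 CPM (SD, n = 11) in NoCycW5 endometrium, so the SD of 3 of the 4 means exceeded the mean. The medians had the opposite order to the means, at 0.135 and 0.270 CPM in CycW5 endometrium and 0.179 and 0.340 CPM in NoCycW5 endometrium. FCRLA, the paired B cell marker, was highest in library 75 (4.07 CPM) among NoCycW5 and in library 89 (5.57 CPM) among CycW5 libraries, with group means of 0.863 and 1.26 CPM, and its part in the values of these libraries was not tested.

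**Figure D5:**
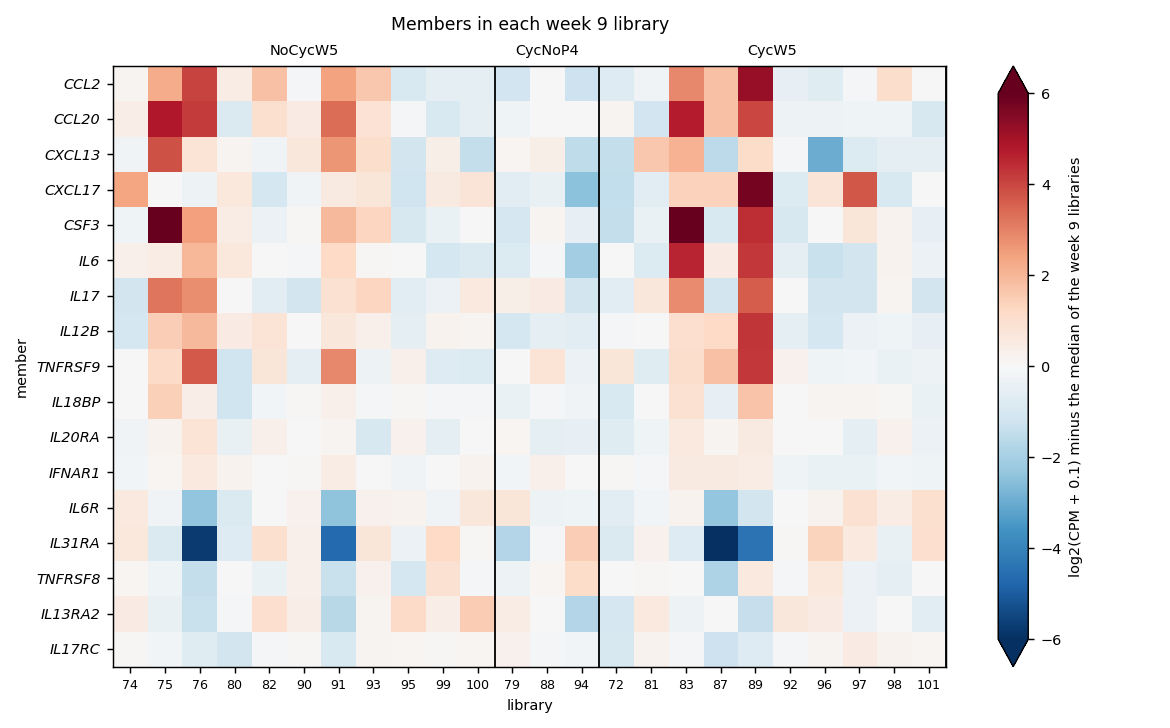
Log2(CPM + 0.1) of 17 genes in each of the 24 week 9 libraries, minus the median of those libraries for the gene; columns are libraries by group, rows are genes, and the color scale ends at 6 in both directions. NoCycW5 libraries 75 and 76 and CycW5 libraries 83 and 89 are high for CCL2, CCL20, CSF3 and IL17, and libraries 76, 87, 89 and 91 are low for IL31RA.

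The remaining genes were near the limit of counting. IL22, which encodes a cytokine that acts on epithelial cells, had at most 4 reads in any library. IL21, a T cell cytokine gene, had 0 to 9 reads in NoCycW5 endometrium at week 5 and at most 17 reads elsewhere, in CycW5 library 83. IL36A, an epithelial cytokine gene of the IL-1 family, had at most 20 reads, in NoCycW5 library 75 at week 9. The identifier paired with CD46, a regulator of complement, had 0 reads in all 12 NoCycW5 libraries at week 5, which allows up to 0.008704 CPM when 3 reads are permitted over the group, and at most 5 reads at week 9. These 4 genes were below the filter in every fit. CD46 passed without a filter for the change from week 5 to week 9 in NoCycW5 endometrium (BH P = 0.000136), at these read numbers. IL17RD, in contrast, was well counted (medians of 3.25 to 4.86 CPM) and was a DEG in none of the comparisons.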

How the data were processed

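Stranded mRNA libraries were made from endometrial biopsies. After trimming, single-end reads were mapped by the authors with Hisat2 on cattle assembly UMD3.1, FeatureCounts gave the count of each Ensembl gene, and the submitters' processing notes also name StringTie and edgeR. The values as deposited are whole-number read counts that had not been normalized, for 18830 genes in 50 libraries. Samples were grouped by the cyclicity status and week in their labels, and each library carries its label number. The study's own analysis kept part of these cows, whereas all deposited libraries were used here.

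Symbols were paired with Ensembl identifiers only through the study's lists (2324 of 2729 identifiers carried a symbol; further microbiota lists were not used here). The reference gene table held no Ensembl identifiers, and no sequence or coordinate was used. The genes and the pathway and marker lists (183 symbols, of which 16 could be paired) were chosen with earlier results of these data known. Genes found by the symbol rule were named, except 1 that is counted but not reported here, and of a pathway list at most 3 greater and 3 lesser DEG per comparison.

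Counts were analysed in R 4.3.3 with edgeR 4.0.16 (TMM, filterByExpr, robust quasi-likelihood test). A fit of 4 groups (CycW5 and NoCycW5 at both weeks) gave 5 contrasts, and fits of 3 groups at each week compared the CycNoP4 cows. BH adjustment was over all genes of a fit (15483, 15738 at week 5 and 15771 at week 9). The cow, the microbiota and batches were not fitted because the labels do not link them to libraries. P values therefore take the libraries as independent, although the study sampled its cows at both weeks. How the pairing of weeks would change them was not tested. A gene was tested only where the contrast used no group of a cyclicity or week contrast that listed it. Lists for the microbiota were not treated as using a group, although they were made on libraries of week 5 or week 9. Alternatives were DESeq2 1.42.0 size factors, its Wald test, limma 3.58.1 voom (also with quality weights per library), omitting the filter, tightening it (10 libraries with 1 CPM or more), only the compared groups, CycNoP4 libraries counted as CycW5, and leaving out each library (93 fits). The scripts were tested on simulated data. No pair of the 1225 was a repeated library, because the mean chi-square per gene was at least 29.99. Counting floors allow 3 reads over a group and cover counting error only.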

Additional observations from a re-analysis of the deposited data

Results flagged for a closer look

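For each gene, groups of 4 to 10 libraries were examined for a single highest or lowest library that stood apart by Dixon's ratio on log2 CPM. Of 73 groups tested, 5 had such a library, and chance gives about 1 in 20 (3.6 groups). In the CycW5 cows at week 5, CXCL17 was at 19.76 CPM in library 54, with the other libraries at 0.193 to 2.01 CPM. In the CycNoP4 cows at week 5, IL17 was at 0.9792 CPM in library 64, with the other 3 libraries at 0.342 to 0.378 CPM. In the CycW5 cows at week 9, library 89 stood apart for IL12B (3.933 CPM, others 0 to 0.366 CPM) and for TNFRSF9 (7.594 CPM, others 0.139 to 1.26 CPM). In the same group library 87 was the lowest for TNFRSF8 (0.5698 CPM, others 1.597 to 3.72 CPM). Libraries 87 and 89 were also low for IL31RA, as the report gives.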

How the results depend on the processing

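No paired analysis was possible because the labels do not number the replicates or link libraries to cows. No result was reversed. Counts of DEG among the genes tested moved by over 1.5 times under these settings. For CycW5 against NoCycW5 at week 5 (2), limma-voom, no filter and CycNoP4 counted as CycW5 gave 1 each. Under the last, IFNAR1 was at -0.06 (BH P = 0.785), because CycNoP4 libraries are high for it. For week 9 against week 5 in the NoCycW5 cows (2), limma-voom, only the compared groups and CycNoP4 counted as CycW5 gave 1 each, without IL20RA. For week 9 against week 5 in the CycW5 cows (0), library quality weights gave 4 and CycNoP4 counted as CycW5 gave 2. For CycNoP4 against NoCycW5 at week 5 (2), limma-voom and only the compared groups gave 0. Leaving out each library gave 0 to 2, 1 to 2 and 0 to 0 for these first 3 comparisons and 0 to 0 for CycW5 against NoCycW5 at week 9. The same gave 0 to 1 for the difference between changes, 0 to 4 and 4 to 9 for CycNoP4 against NoCycW5 and CycW5 at week 5, and 0 to 0 for both week 9 comparisons of CycNoP4. Of the 7 DEG between CycNoP4 and CycW5 at week 5, the calls of IL6 (limma-voom BH P = 0.224, with weights 0.254) and IL6R (0.0699 and 0.0607, and 0.109 with only the compared groups) were lost, as was IL18BP with only the compared groups (0.0739). IL31RA and IL6 were below the stricter filter, which left 5. Over all genes, DEG went from 7 to 3170 with library quality weights (0 to 383 when leaving out a library) for the CycW5 change, from 1210 to 612 with limma-voom for the difference between changes, and from 2319 to 904 with only the compared groups for CycNoP4 against NoCycW5 at week 5 (132 to 4981 when leaving out a library). The causes were not tested. With 3 or 4 CycNoP4 libraries, and with few reads for IL12B, IL21, IL22, IL36A and CD46, small differences could not be detected.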

Other observations

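Some genes downstream of IL-17 and NF-kB were read in the libraries of week 9 that stood apart, and were chosen after their values were seen. The study had listed LCN2 and TNIP3 at week 9 for the earlier microbiota, so their high libraries are not independent of that listing. LCN2, an antimicrobial iron-binding protein gene of inflamed epithelia, was highest in NoCycW5 library 75 (5.98 CPM, group mean 1.05) and CycW5 library 83 (4.60 CPM, group mean 1.01). TNIP3, an inhibitor of NF-kB signaling, was highest in the same libraries, at 10.01 CPM (group mean 1.16) and 3.11 CPM (group mean 0.643). RELB was highest in NoCycW5 library 76 (39.95 CPM, group mean 18.2) and CycW5 library 89 (47.3 CPM, group mean 18.8). LIF was highest in CycW5 library 83 (14.1 CPM, group mean 2.58). In the 3 CycNoP4 libraries of week 9, LCN2 did not exceed 0.273 CPM and RELB did not exceed 12.5 CPM. At week 5, library 51 of the CycNoP4 cows, which was highest for IL6, was also the highest CycNoP4 library for LCN2 (2.01 CPM), RELB (49.95 CPM) and LIF (5.89 CPM), whereas TNIP3 and TRAF3IP2 were highest in library 56 and DUOX2 in library 64.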
